A study of Ovis aries with 6 samples.

Results

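LPL, PLIN1 and ABHD5 are 3 genes of triglyceride storage and breakdown. Their probes were found among the probes without controls by the RefSeq accession in each array's annotation column, matched to symbols in a RefSeq gene table. The 3 genes were among 500 that could be named in this way, and they had 5 of the 767 named probes. LPL had A_70_P029921 and A_70_P029922 (accession NM_001009394 in both), PLIN1 had A_70_P014631 and A_70_P014632 (NM_001113773 in both), and ABHD5 had A_70_P051361 (NM_001104933). The array files carried no other gene name column, so a probe of these genes without an accession would not be counted here. Of the 5 probes, 4 were tested between the groups, and the LPL probe A_70_P029921 was not, because it was not well above background on any array.

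RNA came from dorsal skin of 6 Hu lambs (Ovis aries) at 2 days of age, of which 3 had a large wave coat pattern and 3 a small wave pattern. The series' text gives all lambs 1 sire and puts the lambs of each large and small wave pair with 1 dam, without saying which lambs form a pair. Lambs of the same replicate number are compared as pairs below, and that they share a dam was inferred from the data. Each lamb was measured on its own one-colour array, and all 6 arrays lay on 1 slide. The series asks which genes differ in skin between the coat patterns. The samples are whole skin, so that for every gene below fewer cells of a type and less RNA per cell cannot be told apart.

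Lipoprotein lipase (LPL) is secreted mainly by fat and muscle cells, is carried to the vessel wall, and releases fatty acids from the triglycerides of circulating lipoproteins for uptake and storage. Perilipin 1 (PLIN1) coats the lipid droplet of adipocytes. In the resting fat cell it shields the droplet from lipases and holds ABHD5, and when it is phosphorylated under adrenergic signals it lets ABHD5 go. ABHD5, also called CGI-58, is a coactivator of lipases: in adipocytes it activates the triglyceride lipase PNPLA2, and in the upper epidermis it works with PNPLA1 in making the acylceramides of the skin's water barrier. Loss of ABHD5 in people causes neutral lipid storage disease with ichthyosis, a scaling disorder of the epidermis. LPL and PLIN1 are thus largely marks of fat cells in skin, while ABHD5 is used by fat and epidermis both.

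The arrays differed in brightness. The 75th percentile of processed signal, in the scanner's arbitrary intensity units, was 392, 205 and 249 on large wave arrays 1, 2 and 3, and 285, 152 and 94.7 on small wave arrays 1, 2 and 3. Between 51.4% (small wave 3) and 70.7% (large wave 1) of spots were well above background. The tissue label was matched by its markers: the keratinocyte gene SFN had processed signals of 47410 to 81227, the fibroblast gene DCN had 7897 to 18464, and all 8 of the 10 listed hair follicle genes that could be named were well above background on 6 arrays. Of 10 adipocyte markers only PLIN1, LPL and PPARG could be named on the array. ADIPOQ, LEP and FABP4 were not analysed here.

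The LPL and PLIN1 probes gave signals near the lower end of what the arrays could measure, and the ABHD5 probe gave signals well clear of background on every array. On large wave arrays 1, 2 and 3, the LPL probe A_70_P029921 had processed signals of 10.1, 5.77 and 5.18. On small wave arrays 1, 2 and 3 it had 7.02, 9.56 and 8.49. The scanner software, which makes this call for each spot, called none of them well above background, although its weaker test called them positive and significant on 6 arrays. The negative control spots, which match no sheep transcript, had medians of 1.59 to 2.49, and the LPL probe stood 2.61 to 4.59 times above the median of its array. Since neither group measured it above background, no fold is given for this probe.

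The second LPL probe, A_70_P029922, had processed signals of 11.6, 4.47 and 17.2 in large wave lambs 1, 2 and 3, and of 11.8, 9.03 and 17.0 in small wave lambs 1, 2 and 3. It was well above background in lambs 1 and 3 of each group and not in lamb 2 of either, so the signal was detected on 4 of 6 arrays. The highest signal of each group came from lamb 3, and the lowest from lamb 2, and the groups overlapped. Both probes carry the same LPL accession but 1 was detected on 0 arrays and the other on 4. The probe that was not detected was still the brighter of the pair on large wave array 2 and small wave array 2, so that the pair had no fixed order. Probes differ in how they bind, and signals of different probes are not read as ratios of transcript abundance.

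The PLIN1 probe A_70_P014631 had processed signals of 26.1, 10.7 and 15.6 in large wave lambs and of 16.2, 10.1 and 4.99 in small wave lambs. A_70_P014632 had 33.7, 18.4 and 13.2 in large wave lambs and 25.0, 17.0 and 11.2 in small wave lambs. Both PLIN1 probes were well above background on 5 of 6 arrays, and in both the array that failed was small wave 3, the dimmest of the 6. PLIN1 was therefore measurable in skin of both coat patterns, though not on every array. Over all 6 arrays the first probe stood at 2.25 to 11.8 times the median negative control and the second at 5.07 to 15.3 times. The low end of both ranges came from small wave 3, where PLIN1 was not well above background.

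ABHD5 had processed signals of 3325, 1264 and 2348 in large wave lambs 1, 2 and 3, and of 4485, 1029 and 1735 in small wave lambs 1, 2 and 3. It was well above background on 6 of 6 arrays, at 414 to 2704 times the median negative control, and no spot was saturated. The highest and the lowest signal both came from small wave lambs, and the groups overlapped. Among all 15008 probes of an array, the ABHD5 probe stood at percentiles 91.8 to 96.7 of processed signal. The LPL probes stood at percentiles 25.6 to 55.3, and the PLIN1 probes at 37.6 to 49.5.

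The scanner software's own error estimate followed the same split. It was 10% of the signal for ABHD5 on each array, between 11.9% and 39.3% for the PLIN1 probes, and between 13.4% and 47.3% for the LPL probes. Detection on every array was common on this platform: 7171 probes (47.8%) were well above background on 6 arrays, as ABHD5 was. The PLIN1 pattern of 5 arrays was seen for 1282 probes (8.54%), the pattern of 4 arrays of LPL A_70_P029922 for 926 (6.17%), and the absence of A_70_P029921 from all 6 arrays for 3721 (24.8%).

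**Figure D1:**
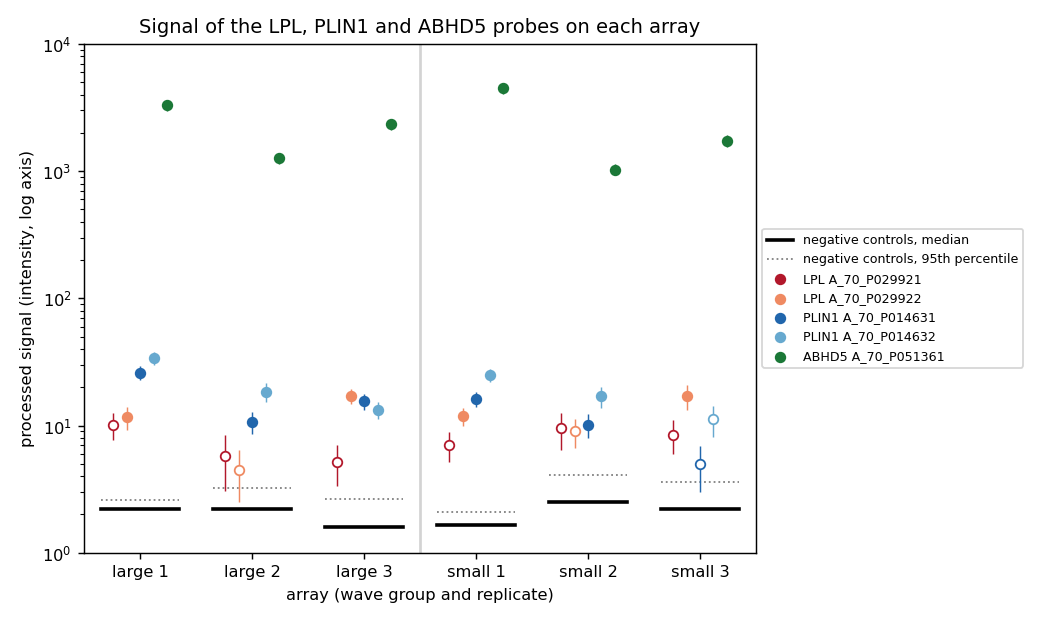
Processed signal (arbitrary intensity units, logarithmic axis) of the 5 probes on each array, with bars for the scanner software's own error; open markers are signals not well above background, the black line is the median and the dotted line the 95th percentile of 77 negative control spots. LPL and PLIN1 lie between 4.47 and 33.7, whereas ABHD5 lies between 1029 and 4485 on every array. LPL A_70_P029921 is well above background on 0 of 6 arrays, LPL A_70_P029922 on 4, each PLIN1 probe on 5 and ABHD5 on 6.

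For the comparison of coat patterns each signal was put on a log2 scale and set against the 75th percentile of its array, so that a scaled value of 0 is the level of that percentile. None of the 3 genes passed the test between large and small wave lambs in limma's moderated test with Benjamini-Hochberg adjustment over the 10047 probes tested. That test called 0 probes of the whole array (0%) at an adjusted p of 0.05, and its lowest adjusted p was 0.777. Without adjustment 384 probes (3.82%) were below 0.05, and none of the members was among them.

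LPL A_70_P029922 had scaled values of -5.07, -5.52 and -3.85 in large wave lambs and -4.59, -4.08 and -2.47 in small wave lambs. The group means were -4.82 ± 0.86 (SD, n = 3) and -3.71 ± 1.10 (SD, n = 3). Large minus small wave was -1.10 ± 0.70 (SE), a small wave mean 2.15-fold above the large wave mean, with a 95% confidence interval of -2.73 to 0.53 and an adjusted p of 0.777. The difference had the same sign in all same-numbered pairs, at -0.49, -1.44 and -1.38, but the groups overlapped, because large wave lamb 3 lay above small wave lambs 1 and 2. In unscaled signal the means were close, at 11.1 ± 6.39 (SD, n = 3) and 12.6 ± 4.07 (SD, n = 3), and without scaling the difference in log2 signal was -0.34. The LPL difference was -0.48 without small wave lamb 3, whose array was the dimmest, and -0.40 with array brightness as a covariate.

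PLIN1 gave no single direction. Its probe A_70_P014631 had scaled values of -3.91, -4.26 and -4.00 in large wave lambs and -4.13, -3.91 and -4.25 in small wave lambs, a spread of only 0.35 over the 6 arrays. Large minus small wave was 0.039 ± 0.41 (SE), with a 95% confidence interval of -0.90 to 0.98 and an adjusted p of 0.984. The interval allows a difference of nearly 1 log2 unit either way, so equal levels are not shown by it. The same-numbered pairs differed in sign, at 0.22, -0.35 and 0.25.

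The other PLIN1 probe, A_70_P014632, had scaled values of -3.54, -3.47 and -4.24 in large wave lambs and -3.51, -3.17 and -3.08 in small wave lambs. Its difference was -0.50 ± 0.43 (SE), a small wave mean 1.41-fold above the large wave mean, with a 95% confidence interval of -1.49 to 0.50 and an adjusted p of 0.781. The same-numbered pairs gave -0.025, -0.31 and -1.16. Large wave lamb 3 had the lowest value, and without it the difference was -0.25. Over the 6 arrays the pair of PLIN1 probes did not move together (Pearson r = -0.25), while the pair of LPL probes had r = 0.70. These correlations describe 6 arrays that share the scaling, and most of the signals are close to background.

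ABHD5 had scaled values of 3.09, 2.63 and 3.24 in large wave lambs and 3.98, 2.76 and 4.20 in small wave lambs. The means were 2.98 ± 0.32 (SD, n = 3) and 3.64 ± 0.77 (SD, n = 3). The difference was -0.66 ± 0.42 (SE), a small wave mean 1.58-fold above the large wave mean, with a 95% confidence interval of -1.64 to 0.32 and an adjusted p of 0.777. Small wave lambs 1 and 3 lay above all large wave lambs, and small wave lamb 2 lay among them, so the groups overlapped. The same-numbered pairs gave -0.89, -0.13 and -0.96. Leaving out small wave lamb 2 moved the difference to -1.10, and leaving out small wave lamb 3 moved it to -0.38.

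The value of ABHD5 in small wave lamb 3 also depended on the last step of the scanner software. There the processed signal was 1.50 times the background-subtracted signal of 1159, against 0.82 to 0.97 times on the other arrays. This factor varied widely between bright spots of that array, with a 5th percentile of 0.67 and a 95th of 1.69 over 2626 bright spots. On the background-subtracted scale, lamb 3 of the small wave group stood at 3.69 and lamb 3 of the large wave group at 3.55, and the ABHD5 difference was -0.44. This alternative was chosen after the data were seen.

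**Figure D2:**
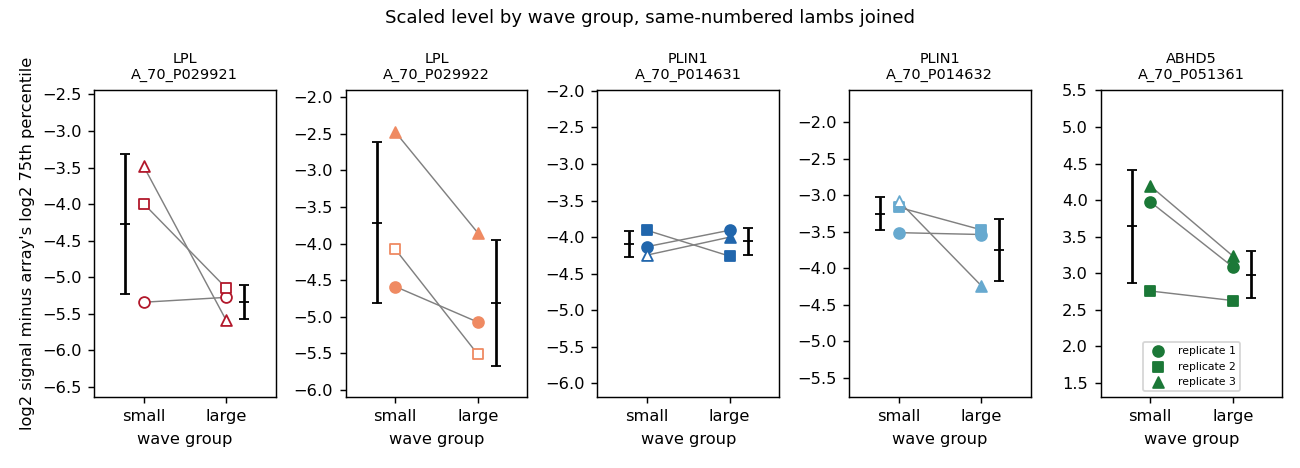
Scaled log2 level of each probe in small wave and large wave lambs, 1 panel a probe with axes of equal span; lines join same-numbered lambs, circles, squares and triangles are replicates 1, 2 and 3, bars are means ± SD (n = 3), and open markers are values not well above background. The groups overlap in every panel; LPL A_70_P029922, PLIN1 A_70_P014632 and ABHD5 are lower in the large wave lamb of each pair, and PLIN1 A_70_P014631 is not.

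Of the 4 tested member probes, 3 had a lower mean in large wave than in small wave lambs, against 51.3% of all tested probes. The same 3 were lower in all same-numbered pairs, against 18.3% of the 9220 tested probes with a value on every array. The lambs' pairs and the groups rest on the same arrays, so these counts are not separate evidence. Over all tested probes the median difference was -0.02 and the median size of a difference was 0.40, and the median 95% confidence interval reached 1.06 to either side. The ABHD5 and PLIN1 differences were smaller than that reach. Without scaling between arrays, a setting added after the data were seen that moves the median of all probes to 0.74, only LPL of the 4 probes had a lower large wave mean.

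The backgrounds differed for dim and bright probes. Among the tested probes split into 10 classes of equal number by mean level, the dimmest class, which held LPL A_70_P029922 and PLIN1 A_70_P014631, had a median difference of 0.11, and 43.4% of its probes had a lower large wave mean. The next class, which held PLIN1 A_70_P014632, had a median of 0.14, with 43.3% lower. The brightest class, which held ABHD5, had a median of -0.33, and 78.9% of its probes had a lower large wave mean. The shares of probes lower in every same-numbered pair were 11.2%, 13.2% and 39.9% in these classes, in the same order. The ABHD5 difference of -0.66 therefore had the direction of most bright probes, and the LPL difference of -1.10 had the direction of 43.4% of the dimmest tested probes.

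The array's floor differed between the groups once scaled. Unscaled, the negative control medians overlapped, at 2.20, 2.21 and 1.59 on large wave arrays and 1.66, 2.49 and 2.21 on small wave arrays. The log2 75th percentile, which scaling subtracts, had a mean 0.76 higher on large wave arrays. After scaling, the median negative control stood at -7.10 ± 0.50 (SD, n = 3) on large wave arrays and -6.26 ± 1.04 (SD, n = 3) on small wave arrays, a difference of -0.84. Probes that were too dim to be tested had a median difference of -0.65. The LPL and PLIN1 signals lie close to this floor, and the floor's part in their differences was not tested.

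**Figure D3:**
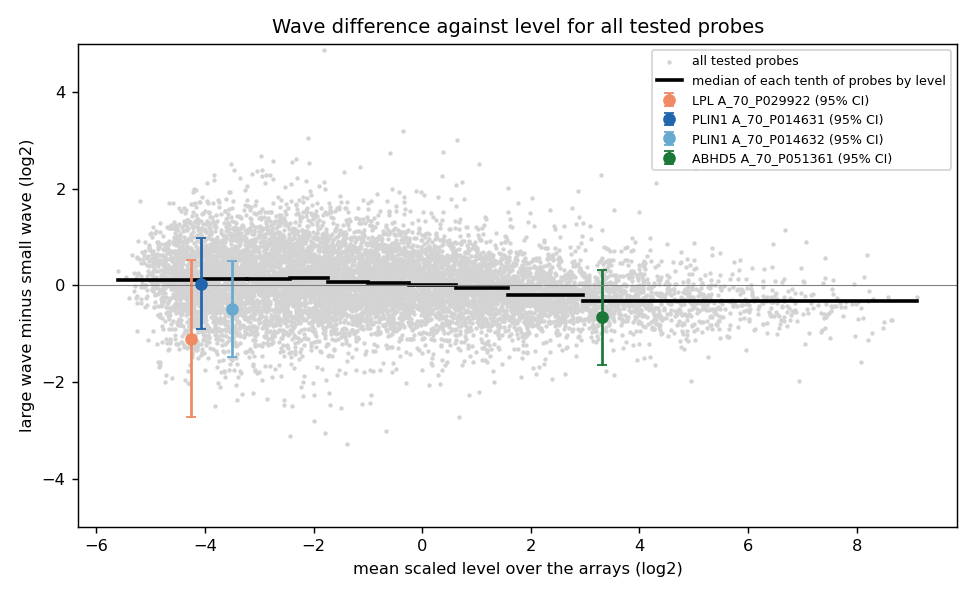
Difference in log2 level, large minus small wave, against mean scaled log2 level for the 10047 tested probes, with the median of each of 10 brightness classes and the 4 tested member probes with their 95% confidence intervals. LPL and PLIN1 sit at the dim end, where the class medians are 0.11 and 0.14, and ABHD5 at the bright end, where the class median is -0.33; every member interval includes 0.

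To compare the fat cell genes with ABHD5 free of the scaling between arrays, each LPL or PLIN1 probe was taken as a log2 ratio to the ABHD5 probe of its own array. The level of such a ratio mixes the binding of both probes, and only its change between groups is read. For LPL A_70_P029922 the ratio was -8.16, -8.14 and -7.09 in large wave lambs and -8.56, -6.83 and -6.67 in small wave lambs. The means differed by -0.44, and an exact two-sided permutation test over the 6 arrays gave p = 0.7. The direction was not shared by the same-numbered pairs, which gave 0.40, -1.31 and -0.42. Lamb 2 of each group enters with an LPL signal not well above background, with a scanner error of 44.4% in the large wave and 25.8% in the small wave lamb. With single arrays left out the LPL ratio difference ran from -1.05 (without small wave lamb 1) to -0.099 (without small wave lamb 3).

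For PLIN1 A_70_P014631 the ratio was -6.99, -6.89 and -7.24 in large wave lambs and -8.11, -6.67 and -8.44 in small wave lambs. The large wave values lay within 0.35 of each other, while those of small wave lambs 1 and 3 lay below them and that of lamb 2 above. The means differed by 0.70 (exact two-sided permutation p = 0.4), or by 0.35 without small wave lamb 3 and 1.24 without small wave lamb 2. In small wave lamb 3 the PLIN1 signal was not well above background. There the ABHD5 processed signal was also 1.50 times its background-subtracted signal. On background-subtracted signal this ratio difference was 0.38. The scaled difference was 0.039 for this PLIN1 probe and -0.66 for ABHD5. For PLIN1 A_70_P014632 the ratio was -6.62, -6.10 and -7.47 against -7.49, -5.92 and -7.27, a difference of 0.16 (exact two-sided permutation p = 0.9). Adjusted over the 3 ratios computed, the exact permutation p was 0.9 for each. With 3 arrays a group this test cannot give a p below 0.1. No difference in the wave response of LPL or PLIN1 against ABHD5 was thus detectable.

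**Figure D4:**
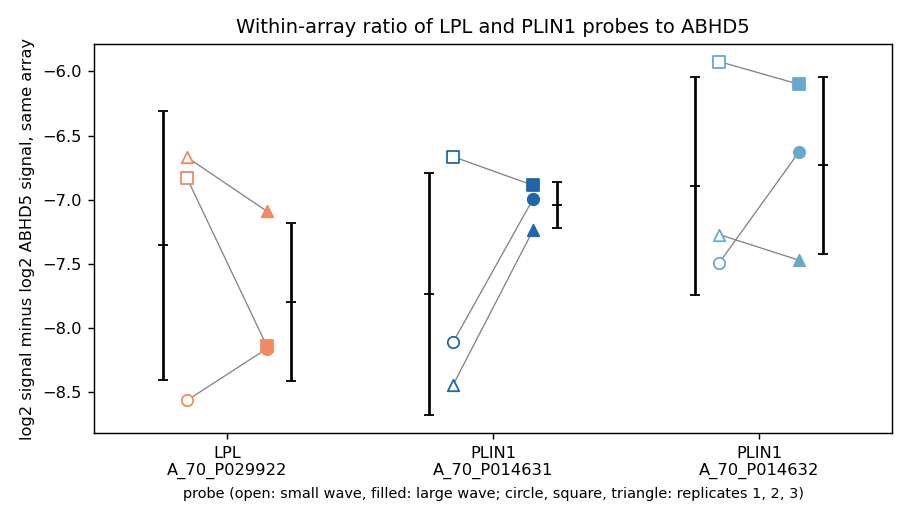
Log2 ratio of each tested LPL or PLIN1 probe to the ABHD5 probe of the same array, open markers for small wave and filled markers for large wave lambs; lines join same-numbered lambs and bars are means ± SD (n = 3). The groups overlap for all 3 probes, with mean differences, large minus small wave, of -0.44 for LPL and of 0.70 and 0.16 for PLIN1.

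Among 304 named genes with a tested probe and a value on 6 arrays, the scaled profiles most like that of LPL A_70_P029922 by Pearson r were those of LOC780442 (0.976), PRKAA2 (0.953), which encodes a catalytic subunit of the energy sensor AMPK, ISG15 (0.934), an interferon-induced ubiquitin-like protein, SPA17 (0.93) and GGTA1 (0.912). For PLIN1 A_70_P014632 they were the splicing factor gene SRSF3 (0.995), ARFIP2 (0.97), RILPL2 (0.952), the ribosomal protein gene RPS25 (0.945) and PSIP1 (0.943). For ABHD5 they were FHL1 (0.942), the growth factor receptor gene MET (0.941), FTO (0.928), ARAF (0.918) and CA11 (0.91). No gene was shared between these lists, and no member was in the list of another member. ABHD5 itself had r = 0.66 with LPL A_70_P029922, 0.17 with PLIN1 A_70_P014632 and -0.39 with PLIN1 A_70_P014631. With 6 arrays, and the best of 304 taken, such values of r describe these arrays only.

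Other genes of lipid handling were read from 8 lists, in which 18 genes beside the members could be named on the array. Of these 13 were tested and 0 were called. Their differences ran from -1.03 to 0.92 with a median of -0.21. Large wave means were lower for 8 of the 13 (61.5%), against 51.3% of all tested probes, but for 6 in the authors' deposited table and 3 without scaling between arrays. The share over all probes depended on level, at 43.4% in the dimmest class and 78.9% in the brightest. The 13 genes were not matched to probes of like level. Each gene was represented by its probe of highest mean. With single arrays left out, the sign turned for 4 of the 13 (PLIN2, SCD5, ME1 and NPY).

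Among the lipases and their regulators, 3 of 10 could be named and tested: ABHD5, PLIN1 and LIPA, the lysosomal acid lipase, at -0.36 ± 0.36 (SE). Among droplet coat genes, PLIN2, the perilipin that most tissues carry, was far from the floor, with processed signals of 768 to 4367 on its brightest probe. Its difference was -0.21 ± 0.43 (SE), -0.023 on its second probe, and it was 0.053 after quantile normalization. PLIN5, the perilipin of oxidative tissues, was well above background on at most 1 array, and CAV1, a caveolar protein, on 0 arrays. CAV1 had 1 probe, with signals of 1.66 to 4.07, so low expression and poor binding of the probe cannot be told apart. PLIN5 and CAV1 were not tested.

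In the list of fatty acid release, uptake and binding, LPL was accompanied only by FABP5, the fatty acid binding protein of epidermis, whose signals ran from 9807 to 25653. Its difference was -0.38 ± 0.34 (SE), with the value of small wave lamb 3 left out because its spot was marked as an outlier, 0.37 with that spot kept and 0.73 in the authors' deposited table. DGAT1, which makes the last step of triglyceride synthesis, stood at -0.31 ± 0.31 (SE), and its second probe at 0.20. In fatty acid synthesis ACLY (0.92) and ME1 (0.57) had higher and SCD (-1.03) and SCD5 (-0.16) lower large wave means, and ACACA was not tested. Single arrays carried much of these values: ACLY stood at 0.078 without small wave lamb 2, and ME1 at -0.071 without small wave lamb 3 and -0.57 with array brightness as a covariate. The second SCD5 probe stood at 0.21.

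Of the adipocyte regulators, PPARG, the nuclear receptor that drives fat cell and sebocyte differentiation, was well above background on 6 arrays, with signals of 487 to 1132. Its difference was -0.39 ± 0.34 (SE), and -0.076 without small wave lamb 3. NPY, a neuropeptide that restrains lipolysis, stood at 0.15 ± 0.78 (SE) and its second probe at -0.34. The adrenergic receptor gene ADRB3, a mark of mature fat cells, and the leptin receptor gene LEPR were not well above background on any array. All 3 adipocyte markers that were tested (LPL, PLIN1 and PPARG), each by its probe of highest mean, had lower large wave means, against 51.3% of all tested probes. By level, PPARG fell in a bright class in which 71.2% of probes were lower. The classes of LPL and PLIN1, which are members already counted above, had 43.4% and 43.3%. Their median was -0.50, and 0 were called. The other PLIN1 probe, A_70_P014631, stood at 0.039, so PLIN1 is lower by 1 of its probes only. Without scaling, PLIN1 A_70_P014632 (0.26) and PPARG (0.37) had higher large wave means. Since PPARG is also a sebaceous gland gene, it does not mark fat cells alone. In fatty acid oxidation CPT1A, which admits fatty acids to mitochondria, stood at -0.98 ± 0.43 (SE) and CPT1B at 0.33. Their second probes stood at -1.86 ± 1.29 (SE) for CPT1A and -0.35 for CPT1B. The second CPT1A probe was well above background on 5 arrays, and its signals ran from 3.37 to 192. Of 17 barrier lipid genes only ABHD5 and SMPD1, an acid sphingomyelinase, could be named, and SMPD1 stood at 0.32 ± 0.44 (SE), at 0.067 without small wave lamb 2 and at -0.25 with array brightness as a covariate. PNPLA1 and PNPLA2, the lipase partners of ABHD5, were not analysed here.

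No gene of the other cell types' marker lists passed the adjusted test. The keratinocyte gene SFN stood at -1.12, from 2 lambs a group, since the other spots were marked as outliers. Of 8 endothelial genes only AQP1 and EDN1 could be named, at -2.29 ± 0.70 (SE) and -1.29 ± 0.60 (SE), a median of -1.79. Their small wave values spread widely, with SDs of 1.44 and 1.16 (n = 3). The second AQP1 probe stood at -1.62. The fibroblast gene DCN stood at 0.097, also from 2 lambs a group. The muscle genes MYL11 and TNNC2 stood at 0.74 and -1.35, with TNNC2 signals of only 7.71 to 25.0. The sebaceous gland genes SCD and PPARG had a median of -0.71, and the macrophage and blood genes CD14, LYZ and HBB a median of -0.071. On the same lists, the muscle genes MB and MSTN, the sebaceous gland gene MC5R and the macrophage gene SLC11A1 were well above background on 0 arrays. The muscle gene MYOD1 was so on at most 2 arrays, and these undetected genes were not tested. Of the 8 hair follicle genes, 4 had higher and 4 lower large wave means, 5 of them with some arrays left out in the same way. The part of these cell types in the LPL and ABHD5 values was not tested.

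**Figure D5:**
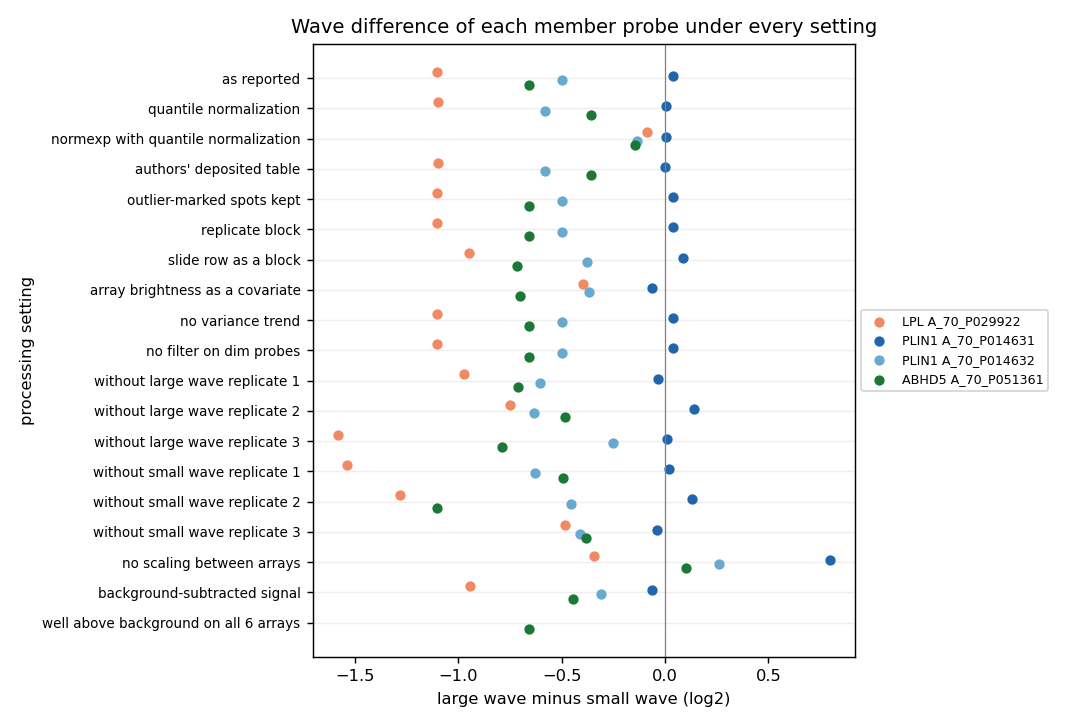
Difference in log2 level, large minus small wave, of the 4 tested member probes under each processing setting, 1 row a setting. LPL A_70_P029922 is below 0 in all settings that test it, some of which cannot change its value, and runs from -1.58 to -0.088. ABHD5 and PLIN1 A_70_P014632 pass 0 without scaling between arrays, at 0.10 and 0.26. PLIN1 A_70_P014631 stays near 0 except there (0.80).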

How the data were processed

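Each of 6 arrays carried Cy3-labelled amplified RNA from the dorsal skin of 1 lamb, per the labels' protocols. The deposited scanner files hold spot intensity values from Agilent Feature Extraction, which the submitters' processing notes give as version 10.7 and the headers as 10.7.3.1. The processed signal is background-subtracted, with no scaling across arrays. The authors' deposited table holds log2 values of 15068 rows with equal quartiles in all columns; the normalization behind it is not stated in these sources. It served as an alternative. Its member differences were close to those after quantile normalization, for ABHD5 -0.358 and -0.361. For the members it is therefore not a separate check from that setting. The number of arrays, 3 a group, limits the precision.

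From the scanner files, log2 processed signal minus the array's 75th percentile over 15208 spots without controls was taken, outlier-marked spots were left out, and spots of a probe were averaged. No member spot was marked. Of 15008 probes, 10048 were well above background on at least 3 arrays and 10047 were tested with limma 3.58.1 in R 4.3.3 (variance trend, Benjamini-Hochberg), after a check on simulated data. Symbols were matched through RefSeq accessions for 767 of 786 probes. Alternatives were the filter, background and normalization, covariates, blocks and leaving out each array; those without scaling or on background-subtracted signal, and for lists also those without small wave lamb 3 or with array brightness as a covariate, were added after the data were seen.

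The series' text pairs large and small wave lambs by dam without tying pairs to replicate numbers. Same-numbered lambs deviated together (r = 0.30, 0.18 and 0.21 over 9220 probes, other pairs -0.29 to 0.067), so the numbers were taken as pairs, an inference from the data. Deviations were taken within each group, so higher r in some pairs pulls down the r of others. The lower r of the other pairs is therefore not separate support, and no record of dams was at hand to check the pairs. Pair and slide column cannot be told apart. Each replicate block holds a large and a small wave lamb, so the block could not change the member differences. With it 0 probes were called.

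Members and lists were chosen with earlier results of these data known. Named are all member probes, the 5 genes of highest r with each member, and genes of the lists.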

Additional observations from a re-analysis of the deposited data

How the results depend on the processing

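No setting called a member or any other probe after adjustment. LPL A_70_P029922 kept its sign throughout, from -0.088 after normexp background correction with quantile normalization to -1.58 without large wave lamb 3. Keeping outlier-marked spots, adding the replicate block, and dropping the variance trend or the filter could not move its difference. Those settings are no check of the sign. With normexp, ABHD5 stood at -0.14 and PLIN1 A_70_P014632 at -0.14. PLIN1 A_70_P014631 turned to -0.0024 in the authors' deposited table, -0.061 with array brightness as a covariate and -0.064 on background-subtracted signal, and ran from -0.037 to 0.14 with single arrays left out. Without scaling, where the median of all probes was 0.74, PLIN1 A_70_P014632 was 0.26 and ABHD5 0.10. The LPL ratio to ABHD5 turned to 0.056 with normexp. The PLIN1 A_70_P014632 ratio difference was -0.22 after quantile normalization and -0.22 in the authors' deposited table, whose member values lie close to that setting. With single arrays left out it was -0.15 to 0.65. With the replicate block the adjusted p was 0.624 for LPL A_70_P029922 and ABHD5 and 0.679 for PLIN1 A_70_P014632, and 584 probes were below an unadjusted p of 0.05, against 384 without it. That count ran from 155 without large wave lamb 3 to 1764 without small wave lamb 1. Requiring detection on 6 arrays left ABHD5 as the single member tested. Near background, LPL and PLIN1 are limited by the signal itself.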
